A study of Mus musculus with 34 samples.

Results

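Embryoid bodies (EB, aggregates of differentiating mouse embryonic stem cells) with a floxed Brg1 gene were compared with and without 4OHT, the active tamoxifen metabolite 4-hydroxytamoxifen. The comparison rests on 4 of the 34 samples of the series, 2 without 4OHT and 2 with it, chosen by their titles. Open chromatin was mapped by ATAC-seq, in which the transposase Tn5 cuts and tags accessible DNA. Both groups carry the label Dox (doxycycline), are labelled day 4, and are labelled as not selected for Flk1, so doxycycline, the day and the floxed Brg1 are common to both groups, and by the labels they differ in 4OHT only. The series concerns Etv2 switched on by doxycycline, and its design text calls these cells Brg1 knockout EB. The labels name no recombinase, no dose or time of 4OHT, no number of clones and no separate cultures, so the 2 samples of a group may be technical repeats. Cells given 4OHT without a floxed Brg1 were not analysed here, so the drug and the loss of Brg1 cannot be told apart.

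Brg1, the product of Smarca4, is an ATPase of the SWI/SNF (BAF) complexes, which slide and evict nucleosomes and thereby open DNA, above all at enhancers away from gene starts. Etv2 is an ETS-family transcription factor that directs mesoderm towards blood and vessel progenitors, in which Kdr (the receptor Flk1), Tal1 and Gata2 are switched on. Polycomb-bound developmental genes such as the Hox clusters are another known place where SWI/SNF acts. In EB, mesoderm genes such as T and Mesp1 are switched on before the blood, vessel and heart genes.

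Each sample has a list of summits, the base of highest signal in each called peak. A summit's score is its −log10 q value from peak calling. Neighbouring summits of the 4 lists formed a region as long as each lay 250 bp or less from the next. A region is called lost when both samples without 4OHT and neither with it have a summit there, gained in the reverse case, and kept when all 4 samples have one. These words describe list membership and carry no test. The lists differ in length, so each count is also given at equal numbers, which means the 17946 highest-scoring summits of each list, the length of the shortest. At equal numbers lost and gained regions nearly balance by construction, and a region can be gained because others dropped below it in rank.

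The sequences below are the 250 bases before 6 RefSeq gene starts (build GRCm38.p6) and were chosen after their values were seen, to show promoters of lineage genes that were called in 1 group only. Capitals mark matches to 12 short motifs searched on either strand. The motifs found here are AGGAAG (an ETS core), CCAAT (NFY), CAGCTG (an E-box) and GGAATG (TEAD), and the Gja4 stretch holds none. Calcrl, Gja4, Gata2, Msgn1 and Esrrb had a summit at this start in both samples without 4OHT and none within 1 kb in either with it. At equal numbers Hoxa13 had one in both samples with 4OHT and in neither without.
Calcrl (chr2:84425267-84425516, minus strand): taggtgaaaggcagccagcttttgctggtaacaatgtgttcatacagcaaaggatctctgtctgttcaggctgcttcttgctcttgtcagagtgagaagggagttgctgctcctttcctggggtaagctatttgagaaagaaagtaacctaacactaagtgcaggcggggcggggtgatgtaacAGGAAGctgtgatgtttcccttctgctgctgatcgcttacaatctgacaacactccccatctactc
Gja4 (chr4:127314040-127314289, minus strand): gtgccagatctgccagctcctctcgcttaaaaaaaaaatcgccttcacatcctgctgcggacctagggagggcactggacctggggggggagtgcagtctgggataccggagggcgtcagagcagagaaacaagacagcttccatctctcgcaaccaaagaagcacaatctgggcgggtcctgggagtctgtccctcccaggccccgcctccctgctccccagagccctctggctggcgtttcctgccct
Gata2 (chr6:88198414-88198663, plus strand): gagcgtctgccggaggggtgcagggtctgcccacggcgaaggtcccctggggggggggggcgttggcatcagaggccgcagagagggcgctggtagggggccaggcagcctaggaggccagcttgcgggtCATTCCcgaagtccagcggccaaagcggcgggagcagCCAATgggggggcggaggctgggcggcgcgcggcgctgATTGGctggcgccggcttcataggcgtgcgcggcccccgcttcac
Msgn1 (chr12:11208949-11209198, minus strand): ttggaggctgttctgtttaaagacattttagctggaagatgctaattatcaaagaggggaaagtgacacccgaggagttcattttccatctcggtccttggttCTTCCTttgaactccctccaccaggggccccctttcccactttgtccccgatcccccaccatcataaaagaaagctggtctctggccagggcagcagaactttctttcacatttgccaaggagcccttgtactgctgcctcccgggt
Esrrb (chr12:86421394-86421643, plus strand): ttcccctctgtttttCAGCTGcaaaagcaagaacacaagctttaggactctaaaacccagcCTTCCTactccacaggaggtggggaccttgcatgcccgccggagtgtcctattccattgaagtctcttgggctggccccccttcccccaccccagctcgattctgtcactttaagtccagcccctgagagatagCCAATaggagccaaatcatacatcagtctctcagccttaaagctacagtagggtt
Hoxa13 (chr6:52260881-52261130, minus strand): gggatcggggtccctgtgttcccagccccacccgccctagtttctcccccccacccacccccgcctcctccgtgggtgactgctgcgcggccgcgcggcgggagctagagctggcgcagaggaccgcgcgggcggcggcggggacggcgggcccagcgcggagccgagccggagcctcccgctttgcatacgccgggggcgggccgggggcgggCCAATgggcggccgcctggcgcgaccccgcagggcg
The Calcrl start had scores of 15.9 and 5.45 without 4OHT. Calcrl encodes the adrenomedullin receptor of vessels. The Gja4 start had scores of 12.2 and 7.42 without 4OHT. Gja4 encodes connexin 37 of arterial endothelium. The Gata2 start had scores of 3.60 and 6.64 without 4OHT. Gata2 encodes a transcription factor of blood progenitors, and this is the downstream one of its starts in the table. The summit of replicate 1 there is not among the equal numbers, so this start is lost in the full lists only. The Msgn1 start had scores of 8.07 and 9.37 without 4OHT. Msgn1 encodes a transcription factor of presomitic mesoderm. The Esrrb start had scores of 10.8 and 5.20 without 4OHT. Esrrb encodes a nuclear receptor of pluripotent cells, and this is the downstream one of its starts. The Hoxa13 start had a score of 4.27 in replicate 1 and no summit in replicate 2 without 4OHT, and scores of 11.7 and 8.10 with it. Its start is therefore gained only at equal numbers, since replicate 1 without 4OHT has a weak summit there in the full list.

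The lists without 4OHT held 31436 and 23823 summits on chromosomes 1 to 19 and X, and those with 4OHT held 17946 and 20229. Both lists with 4OHT were shorter than both without it, and the exact two-sided permutation test over the 4 samples gave p = 0.333, the smallest p that 2 against 2 samples allow. No comparison of single values over these samples can pass a threshold of 0.05. Median scores were 8.63 and 8.53 without 4OHT and 12.3 and 12.5 with it. Every list held 1 summit per peak, so a peak whose maximum moves by over 250 bp reads as a loss and a gain. Read depth per sample is not known here, a score grows with depth, and list length is only a rough stand-in. The lowest scores among the equal numbers were 7.06 and 4.58 without 4OHT and 1.31 and 3.29 with it.

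Smarca4 itself, the gene of Brg1 (chromosome 9, 21616106 to 21704230), had 5 and 4 summits without against 3 and 3 with 4OHT within 50 kb of the gene, and at equal numbers 4 and 3 against 3 and 3. The groups touch at equal numbers. Its start was called in all 4 samples, with scores of 32.1 and 28.4 without 4OHT and 49.7 and 76.3 with it. Summits do not show whether a floxed exon was deleted, so the gene is no check of the labels. Smarca2, the other ATPase of the complex (Brm), had 4 and 3 summits without against 3 and 3 with 4OHT, and at equal numbers 2 and 2 against 3 and 3. Etv2 (chromosome 7, 30633616 to 30636509) had 6 and 6 summits without against 4 and 3 with 4OHT, and at equal numbers 6 and 5 against 4 and 3. A summit about 36 kb into the direction of transcription from the Etv2 start was called without 4OHT only, with scores of 18.4 and 10.5. The lists do not tell the induced copy of Etv2 from the gene's own locus.

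Marker genes listed for each cell type were checked for a summit within 10 kb. All 5 pluripotency markers had one in both samples without 4OHT, and 4 and 5 had one with it. Of 6 mesoderm markers 6 and 6 had one without 4OHT and 5 and 5 with it, and of 8 endothelial markers 7 and 6 against 5 and 5. Of 5 cardiac markers 4 and 4 had one without 4OHT and 0 and 0 with it. Of 6 mesenchymal markers the counts were 5 and 5 against 2 and 3. Of 5 endoderm markers they were 3 and 5 against 2 and 3, and 2 in every sample at equal numbers. At equal numbers the cardiac counts were 2 and 2 against 0 and 0, the mesenchymal 4 and 3 against 2 and 2, and the mesoderm 6 and 6 against 5 and 5, whereas the endothelial counts, 5 and 4 against 5 and 5, no longer lay lower with 4OHT. All 5 neural and all 4 epithelial markers had a summit in every sample with all summits. Of 6 blood markers 3 had a summit in every sample, also at equal numbers, and Gata1, Ptprc and Hbb-bh1 (an embryonic globin) had none in any. The share of all genes with a summit within 10 kb was not counted per sample, and the full lists with 4OHT are shorter. For reference, 17.4% of 16814 genes had fewer summits within 10 kb in both samples with 4OHT than in either without it. At equal numbers this was 7.34% of 15743. In such bulk samples fewer cells of a type and less open chromatin per cell cannot be told apart.

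With all summits, 4754 of 40385 regions were lost (11.8%) and 949 were gained (2.35%), and 12416 were kept. At equal numbers 2256 of 27836 regions were lost (8.10%), 2068 were gained (7.43%) and 10824 were kept. Of the 19303 regions called in both samples without 4OHT, 24.6% were called in neither with it, against 15.8% of 14267 at equal numbers. The excess of losses over gains in the full lists was not seen at equal numbers. Lists cut to the same length nearly balance losses and gains by construction. This setting therefore cannot show whether the excess is more than a difference in list length. Leaving out a sample lowers the number that must agree: without replicate 1 or 2 of the samples without 4OHT 8471 and 14243 regions were lost and 2470 and 1536 gained, and without replicate 1 or 2 of those with it 5541 and 6220 were lost and 3362 and 2385 gained. Samples of the same group shared more summits than samples of different groups at equal numbers: 77.5% of summits were shared between the 2 samples without 4OHT and 80.4% between the 2 with it, whereas 66.9% to 69.2% were shared between samples of different groups. With only the 5000 highest-scoring summits of each list, the shares were 75.5% and 84.2% within groups and 68.3% to 70.1% between them.

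Loss and gain were concentrated among weaker summits. Regions called in both samples without 4OHT were ranked by score and divided into 10 equal classes. In the highest class 0.777% were lost and 98.2% were called in both samples with 4OHT, and in the lowest class 60.4% were lost. At equal numbers the lowest class had 45.9% lost. In the same ranking of regions called in both samples with 4OHT, 0.543% of the highest class and 42.9% of the lowest were gained at equal numbers. The share missing from the other group was higher away from gene ends within each class of the regions called without 4OHT.

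**Figure D1:**
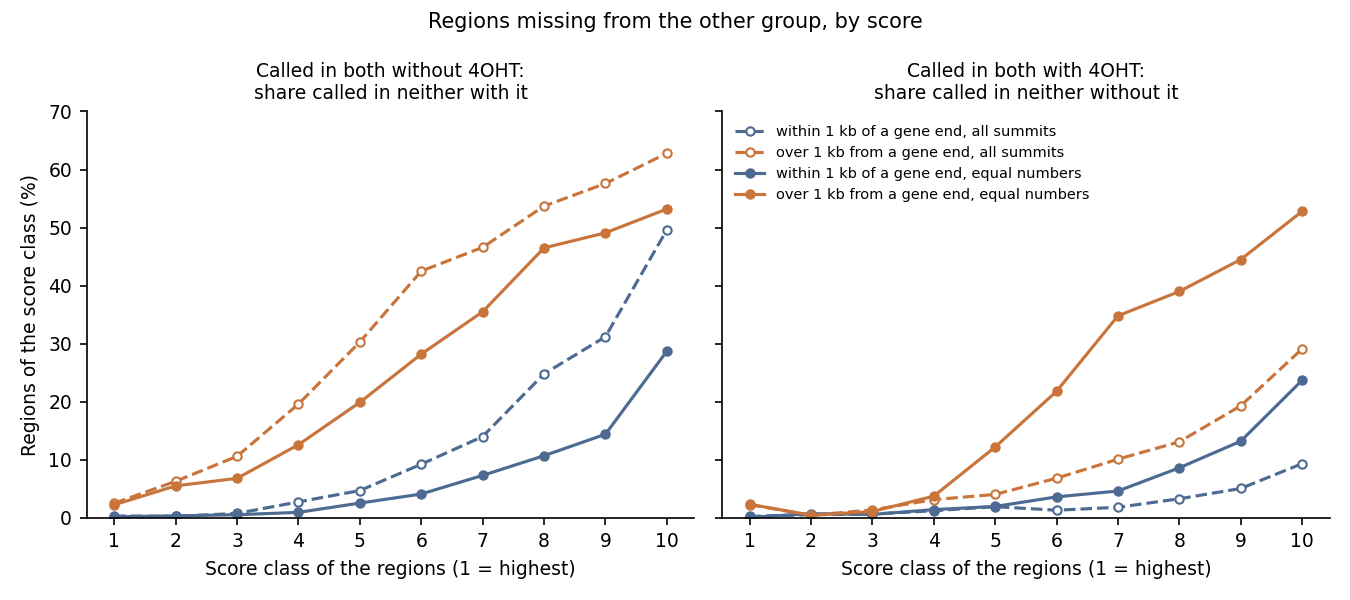
The share of regions (%) that is called in neither sample of the other group (y axis) is plotted by score class (x axis, 10 equal classes, 1 is the highest), for regions within 1 kb of a protein-coding gene's end (blue) and farther away (orange). Dashed lines with open points use all summits and solid lines use equal numbers. In the left panel the orange lines lie above the blue ones in every class, and in the lowest class at equal numbers they reach 53.2% and 28.7%.

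Position in the genome separated kept regions from the others. A gene end here is either end of a protein-coding gene interval, since the gene table used gives no strand. Of kept regions 67.7% lay within 1 kb of a gene end (exact Clopper-Pearson 95% interval 66.9 to 68.6, counting error only, as for all intervals here), against 15.9% of lost regions (14.8 to 16.9) and 17.9% of gained ones (15.5 to 20.5). At equal numbers these shares were 73.0%, 18.8% and 17.9%. Of regions called in both samples without 4OHT, 7.51% at gene ends and 43.2% away from them were lost, and at equal numbers 4.76% and 34.1%. The same held for gained regions, since 4.10% at gene ends and 29.9% away from them were gained at equal numbers. Lost and gained regions differed farther out: 11.9% of lost and 23.8% of gained regions at equal numbers lay outside genes and over 100 kb from the nearest one, with intervals of 10.6 to 13.3 and 22.0 to 25.7. Lost regions lay inside genes, over 1 kb from an end, in 36.4% of cases and gained ones in 29.5%. In the full lists 37.7% and 46.4% of summits lay at gene ends without 4OHT and 55.4% and 51.6% with it, groups that do not overlap, and at equal numbers the shares were 55.3% and 55.3% against 55.4% and 55.7%, within 1 percentage point. The share over 100 kb from a gene was 9.76% and 7.30% against 8.02% and 8.76% in the full lists, which overlap, and 5.90% and 5.30% against 8.02% and 7.83% at equal numbers, which do not (exact two-sided permutation p = 0.333).

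Some lost and gained regions lay beside each other. Of lost regions 7.91% had a summit of the other group within 1 kb, and of gained regions 32.5%, and at equal numbers the shares were 9.13% and 13.6%. Adh5, which encodes an alcohol dehydrogenase that acts on formaldehyde adducts, has a lost and a gained region 298 bp apart, with scores of 40.7 and 33.3 without 4OHT and 48.3 and 50.5 with it. Both groups thus had a strong summit at this gene, and the pair counts as a loss and a gain.

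The regions were looked up in the lists of EB not labelled as floxed, at 12 h with and without doxycycline. There is 1 such list per group, with several summits per peak, so a lookup describes a region and carries no error. Regions found in both 12 h lists made up 96.2% of kept, 71.5% of lost and 67.9% of gained regions. Of the regions called in both floxed samples without 4OHT, 19.7% of those in both 12 h lists were lost. Of those in the doxycycline list alone 44.4% were lost (95% interval 40 to 49, 486 regions), and of those in the list without doxycycline alone 74.8% (71.3 to 78.1, 639 regions). Among those in neither 12 h list 74.0% were lost (70.9 to 76.8, 891 regions). With equal numbers the values were, in the same order, 13.5%, 26.9%, 65.0% and 57.3%. The lost share was lower for sites found at 12 h only with doxycycline than for those found only without it. The counting intervals of these classes do not overlap, though regions are not replicates. A high lost share was not particular to sites found only without doxycycline, since sites in neither list had one too. The order was not particular to loss. Of regions called in both samples with 4OHT, 19.7% of those in the doxycycline list alone were gained. Of those in the list without doxycycline alone 32.1% were gained. At equal numbers these gained shares were 31.1% and 38.6%, with overlapping intervals. The classes were not compared at like score, so the part of score in these shares was not tested.

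Genes were compared by the number of summits within 50 kb of the gene interval. With all summits 5752 of 19472 genes with a summit had fewer in both samples with 4OHT than in either without it (29.5%), and 285 had more (1.46%). At equal numbers 2169 of 18618 genes had fewer (11.7%) and 1795 had more (9.64%). With the 10000 highest-scoring summits of each list the shares were 9.94% and 10.1%. Without replicate 2 of the samples without 4OHT 10961 genes had fewer and 436 more with all summits. Without replicate 1 of that group the number with more was 1391, and without replicate 1 or 2 of the samples with 4OHT it was 1101 and 596. The counts of each gene list below are to be read against these backgrounds. A gene of a list is said to have fewer or more summits when the 2 samples with 4OHT both lie outside those without it, and neighbouring genes share summits.

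**Figure D2:**
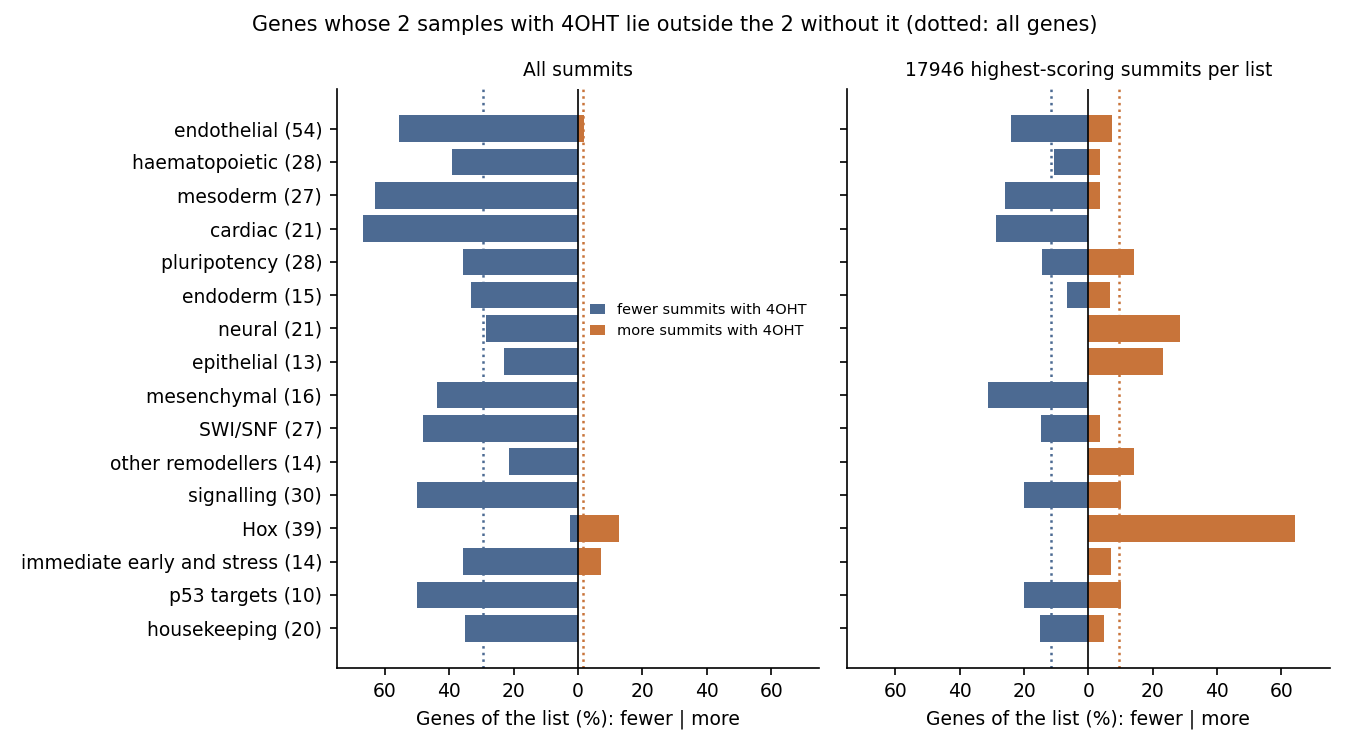
For 16 gene lists (y axis, number of genes in brackets) the share of genes (%) with fewer summits within 50 kb in both samples with 4OHT (blue, to the left) and with more (orange, to the right) is plotted for all summits (left) and at equal numbers (right). Dotted lines mark the same shares over all genes. The cardiac, mesoderm and endothelial lists reach 66.7%, 63.0% and 55.6% in the left panel, and Hox genes reach 64.1% in the orange direction in the right panel.

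Of 54 endothelial genes 30 had fewer summits with 4OHT and 1 had more (55.6% and 1.85%), and at equal numbers 13 had fewer and 4 had more (24.1% and 7.41%). Kdr, the Flk1 receptor for vascular endothelial growth factor (chromosome 5, 75932827 to 75979072), had 3 and 3 summits without against 1 and 1 with 4OHT, and at equal numbers 2 and 3 against 1 and 1. Its start was called in all 4 samples with scores of 12.9 and 13 against 14.7 and 10.5, whereas summits about 30 kb upstream and 48 kb downstream of the start were called without 4OHT only. The upstream site had scores of 8.74 and 4.84 without 4OHT and the downstream one 3.37 and 4.80, all below those of the start. The summit of 3.37 is not among the equal numbers, so the downstream site is lost in the full lists only. The promoter of Kdr was thus kept, and these weaker flanking sites were not called with 4OHT. Aplnr, the apelin receptor of early mesoderm and vessels (chromosome 2, 85136360 to 85139923), had 6 and 3 summits without against 0 and 0 with 4OHT, and at equal numbers 4 and 3 against 0 and 0. Cdh5, the vascular endothelial cadherin (chromosome 8, 104101613 to 104144504), had 6 and 3 summits without against 1 and 1 with 4OHT. Esam, an endothelial adhesion molecule, had 4 and 4 summits without against 2 and 3 with 4OHT. Eng, a co-receptor for TGF-beta ligands, had 7 and 7 summits without against 4 and 4 with 4OHT, and at equal numbers its groups overlap. Fli1, an ETS factor, had 4 and 3 summits without against 1 and 0 with 4OHT, and its groups touch at equal numbers. Efnb2, an arterial ephrin ligand, was the one gene of the list with more: 5 and 3 summits without against 6 and 6 with 4OHT, and at equal numbers 3 and 3 against 6 and 5. Tek, the angiopoietin receptor, had 3 and 2 summits without against 2 and 2 with 4OHT, so its groups touch, and at equal numbers it had 0 and 0 against 2 and 2. Cd34 had 2 and 2 summits without against 2 and 2 with 4OHT, Sox17 had 1 and 3 summits without against 1 and 1 with 4OHT and Erg had 4 and 1 summits without against 3 and 2 with 4OHT, and in none of these do the groups separate. With the 10000 highest-scoring summits 7 endothelial genes had fewer and 7 had more, near the background in both directions, so the list's lean towards fewer summits was not seen among the strongest summits.

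Of 28 haematopoietic genes 11 had fewer summits with 4OHT and 0 had more (39.3% and 0%), and at equal numbers 3 had fewer and 1 had more, close to the background. Gata2 (chromosome 6, 88193891 to 88207032) had 4 and 3 summits without against 1 and 1 with 4OHT, and at equal numbers 3 and 3 against 1 and 1. Its summit about 4 kb before the first start was called in every sample with scores of 19.5 and 13.2 against 14.4 and 13.8, and those about 5 kb and 33 kb into the locus were called without 4OHT only. Runx1, which founds definitive blood, had 7 and 3 summits without against 2 and 1 with 4OHT, Tal1 had 6 and 4 summits without against 3 and 2 with 4OHT and Lmo2, its partner protein, had 4 and 3 summits without against 2 and 2 with 4OHT. At equal numbers the groups of these overlap, with 4 and 1 against 2 and 0 for Runx1, 2 and 3 against 3 and 2 for Tal1 and 3 and 2 against 2 and 2 for Lmo2. Vav1, a signalling protein of blood cells, kept separate groups at equal numbers with 4 and 5 against 3 and 3.

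Of 27 mesoderm genes 17 had fewer summits with 4OHT and 0 had more (63.0% and 0%), and at equal numbers 7 had fewer and 1 had more (25.9% and 3.70%). T, the brachyury factor of the primitive streak (chromosome 17, 8434423 to 8442496), had 6 and 4 summits without against 2 and 2 with 4OHT, and at equal numbers 4 and 4 against 2 and 2. Mesp2, which acts in somite formation (chromosome 7, 79810727 to 79813431), had 9 and 8 summits without against 2 and 2 with 4OHT, and at equal numbers 5 and 5 against 2 and 2. Mesp1, its neighbour and a factor of heart mesoderm, shares most of these summits and had 9 and 7 summits without against 3 and 3 with 4OHT. At equal numbers Mesp1 had 5 and 4 against 3 and 2. Its own start was called in all 4 samples with scores between 3.20 and 4.64. The summits there without 4OHT are not among the equal numbers, so in that setting the start is called with 4OHT only. Msgn1 (chromosome 12, 11208382 to 11208948) had 7 and 4 summits without against 2 and 1 with 4OHT. A summit 12.5 kb into the Msgn1 locus had scores of 21.8 and 9.67 without 4OHT and was not called with it, while one 21 kb in had 6.57 and 5.45 without 4OHT and 13.5 and 14.2 with it. Evx1, a homeobox gene of the streak that adjoins the Hoxa cluster (chromosome 6, 52313498 to 52318389), had 7 and 5 summits without against 1 and 1 with 4OHT. Tbx6 had 8 and 9 summits without against 6 and 6 with 4OHT, and Eomes, a factor of streak and endoderm, had 8 and 6 summits without against 4 and 4 with 4OHT, with 4 in every sample at equal numbers. Osr1, of intermediate mesoderm, was the gene with more at equal numbers, 1 and 0 against 3 and 3, and with all summits its groups touch with 3 and 4 against 3 and 3. With the 10000 highest-scoring summits the list had 1 gene with fewer and 2 with more.

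**Figure D3:**
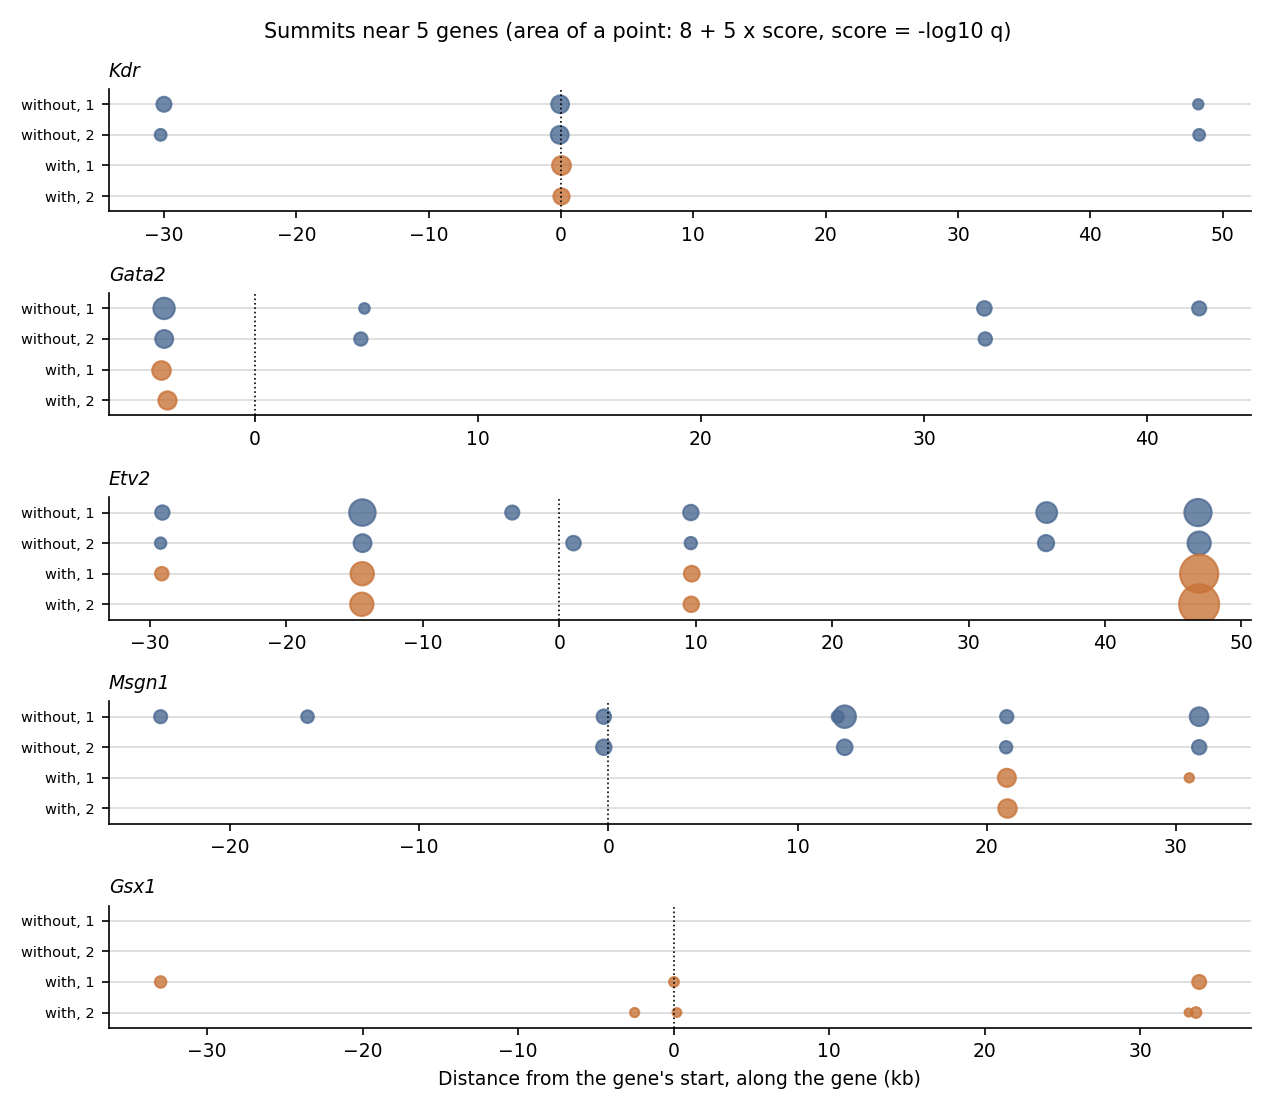
Summits near Kdr, Gata2, Etv2, Msgn1 and Gsx1 are plotted by their distance from the gene's start in kb (x axis, positive in the direction of transcription), with 1 row per sample (blue without 4OHT, orange with it) and a point area of 8 + 5 times the score. The start of Kdr has a point in each of the 4 rows and its flanks only in the blue rows, and Gsx1 has points in the orange rows only.

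Of 21 cardiac genes 14 had fewer summits with 4OHT and 0 had more (66.7% and 0%), and at equal numbers 6 had fewer and 0 had more (28.6% and 0%). Tnnt2, cardiac troponin T (chromosome 1, 135836315 to 135852268), had 5 and 5 summits without against 1 and 0 with 4OHT, and at equal numbers 3 and 2 against 1 and 0. Tnni1, slow troponin I of the embryonic heart, had 7 and 7 summits without against 3 and 2 with 4OHT. Actc1, cardiac actin (chromosome 2, 114047282 to 114052875), had 3 and 4 summits without against 1 and 1 with 4OHT, and Mef2c, a factor of heart and vessel progenitors, had 5 and 2 summits without against 1 and 1 with 4OHT. Gata4 had 9 and 7 summits without against 4 and 5 with 4OHT, and at equal numbers its groups overlap. Nkx2-5 had 1 and 2 summits without against 1 and 0 with 4OHT, so its groups touch. With the 10000 highest-scoring summits 2 cardiac genes had fewer and 2 had more. Of 16 mesenchymal genes 7 had fewer and 0 had more (43.8% and 0%), and at equal numbers 5 and 0 (31.2% and 0%). With the 10000 highest-scoring summits 1 mesenchymal gene had fewer and 1 had more, so this lean was not seen among the strongest summits either. Col1a2, a chain of type I collagen, had 3 and 2 summits without against 0 and 0 with 4OHT, and Fn1, fibronectin, had 5 and 4 summits without against 2 and 2 with 4OHT.

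Of 28 pluripotency genes 10 had fewer summits with 4OHT and 0 had more (35.7% and 0%), and at equal numbers 4 had fewer and 4 had more (14.3% each). The list thus split at equal numbers. Esrrb (chromosome 12, 86361117 to 86521628) had 6 and 5 summits without against 0 and 1 with 4OHT, and at equal numbers 2 and 4 against 0 and 1. Tfcp2l1, of naive stem cells, had 2 and 2 summits without against 1 and 1 with 4OHT in both settings. Klf5 had 3 and 3 summits without against 1 and 2 with 4OHT. Nanog (chromosome 6, 122707489 to 122714633) had 6 and 5 summits without against 6 and 8 with 4OHT, and at equal numbers 4 and 5 against 6 and 7, and Sox2 had 4 and 3 summits without against 3 and 4 with 4OHT and at equal numbers 1 and 1 against 3 and 4. Tdgf1, a co-receptor for Nodal, had 4 in every sample with all summits and 1 and 2 against 4 and 3 at equal numbers. Pou5f1 (Oct4) had 3 and 4 summits without against 2 and 2 with 4OHT, and at equal numbers its groups touch. Its summits about 1 kb before and 11 kb after the start were in all 4 lists, the second with scores of 38.2 and 22.5 against 46.9 and 52.9.

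Neural, epithelial and endoderm genes did not show the same lean. Of 21 neural genes 6 had fewer and 0 had more with all summits, near the background of 29.5% for fewer. At equal numbers 0 had fewer and 6 had more (28.6%). Pax3, a neural crest and dorsal neural tube factor (chromosome 1, 78101267 to 78197136), had 8 and 5 summits without against 5 and 7 with 4OHT and at equal numbers 0 and 2 against 5 and 6, and Zic2 had 6 and 5 summits without against 4 and 6 with 4OHT and at equal numbers 3 and 3 against 4 and 6. With the 10000 highest-scoring summits 2 neural genes had fewer and 1 had more, so this did not hold among the strongest summits. Of 13 epithelial genes 3 had fewer with all summits, and at equal numbers 3 had more and 0 had fewer. Cldn4, a tight junction protein, had 3 and 3 against 4 and 7 and Grhl2, an epithelial factor, had 3 and 1 against 4 and 5 at equal numbers. With all summits the groups of both overlap, with 6 and 4 against 4 and 7 for Cldn4 and 6 and 2 against 4 and 5 for Grhl2. Of 15 endoderm genes 5 had fewer and 0 had more, and at equal numbers 1 and 1. Cxcr4, a chemokine receptor of endoderm and vessels, had 5 and 5 summits without against 1 and 1 with 4OHT, and at equal numbers 4 and 5 against 1 and 1.

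Of 27 SWI/SNF genes 13 had fewer summits with 4OHT and 0 had more (48.1% and 0%), and at equal numbers 4 had fewer and 1 had more (14.8% and 3.70%). The ARID subunits Arid1a and Arid1b had 5 and 7 summits without against 4 and 3 with 4OHT and 8 and 7 summits without against 4 and 6 with 4OHT, and at equal numbers the groups of both touch. Arid2 had 3 and 3 summits without against 2 and 2 with 4OHT in both settings. Dpf3, a subunit found in heart and muscle, had 6 and 3 summits without against 2 and 2 with 4OHT. Of 14 genes of other chromatin remodellers 3 had fewer and 0 had more, and at equal numbers 0 and 2, Chd4 with 6 and 6 against 7 and 7 and Chd3 with 5 and 8 against 9 and 10. With all summits the groups of both overlap, with 10 and 8 against 7 and 8 for Chd4 and 7 and 10 against 9 and 10 for Chd3. Of 30 signalling genes 15 had fewer and 0 had more, and at equal numbers 6 and 3. Axin2, a target of Wnt signalling, had 7 and 5 summits without against 1 and 1 with 4OHT, and at equal numbers 3 and 4 against 1 and 1. Bmp7, a bone morphogenetic protein, had 7 and 5 summits without against 1 and 1 with 4OHT, and Smad6, an inhibitor of that pathway, had 9 and 6 summits without against 2 and 4 with 4OHT. Of 14 immediate early and stress genes 5 had fewer and 1 had more, and at equal numbers 0 and 1. Of 10 p53 targets 5 had fewer and 0 had more, and at equal numbers 2 and 1. Of 20 housekeeping genes 7 had fewer and 0 had more (35.0% and 0%), and at equal numbers 3 and 1, which lies near the background. Gapdh had 7 and 6 summits without against 6 and 7 with 4OHT and Actb had 4 and 4 summits without against 3 and 3 with 4OHT, with 3 in every sample at equal numbers.

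The Hox genes, which set position along the body axis, were the one list of the 16 with more members higher than lower with 4OHT when all summits were used. Of 39 Hox genes 1 had fewer summits with 4OHT and 5 had more with all summits (2.56% and 12.8%), against 29.5% and 1.46% of all genes. At equal numbers 0 had fewer and 25 had more (64.1%). These genes lie in 4 clusters and share their windows, so the 25 genes are not 25 separate observations and the clusters are the unit. Within 50 kb of the Hoxb cluster (chromosome 11, 96194316 to 96368254) the samples without 4OHT had 12 and 9 summits in the full lists, against 9 and 11 in those with it, and at equal numbers 2 and 2 against 9 and 10. The Hoxa cluster (chromosome 6, 52155367 to 52260880) had 14 and 8 against 9 and 13 in the full lists, and at equal numbers 4 and 5 against 9 and 12. The Hoxc cluster had 3 and 1 against 6 and 3 at equal numbers, and Hoxd had 6 and 7 against 7 and 12, so the groups touch in both. With these flanks the full lists thus overlap at all 4 clusters, and at equal numbers the Hoxa and Hoxb groups separate. Inside the Hoxb cluster alone the full lists had 7 and 6 against 8 and 8, which separate by 1 summit. The highest scores gave the same order at 3 clusters without a limit on rank: the highest score inside Hoxa was 12.5 and 8.16 without 4OHT and 18.8 and 23.8 with it, inside Hoxb 9.32 and 4.67 against 12.1 and 22.7, and inside Hoxc 9.60 and 4.38 against 13 and 21.7. Inside Hoxd it was 12.1 and 9.85 against 13.1 and 9.51, which overlap. For reference, the median score over all kept regions was 20.7 and 14.7 without 4OHT and 17.4 and 21.0 with it, which overlap too. Region by region, 36.6% of kept regions scored higher in both samples with 4OHT than in either without it, and 18% lower. The same order of scores was thus common outside the Hox clusters. With the 10000 highest-scoring summits 29 Hox genes had more and 0 had fewer, but this rests on 0 or 1 summits without 4OHT and 1 to 4 with it per cluster and its flanks.

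**Figure D4:**
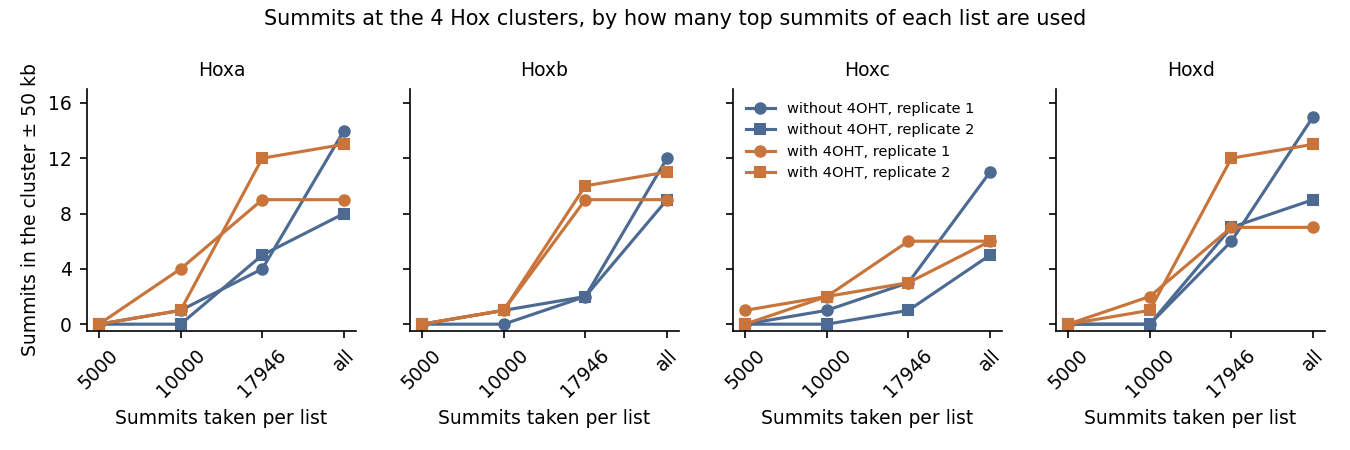
The number of summits in each Hox cluster and the 50 kb on either side (y axis) is plotted against how many of the highest-scoring summits of each list were used (x axis), with 1 line per sample (blue without 4OHT, orange with it). At 17946 summits per list the orange points of Hoxb stand at 9 and 10 and the blue at 2 and 2, and with all summits the colours overlap.

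Among single genes Hoxb5 (chromosome 11, 96303512 to 96306121) had 4 and 3 summits without against 6 and 6 with 4OHT, and at equal numbers 0 and 1 against 6 and 6. Hoxb1, at one edge of its cluster, had 6 and 5 summits without against 3 and 4 with 4OHT with all summits and 1 and 1 against 3 and 4 at equal numbers, so its direction turned with the list length. The neighbourhood was not uniform, since Evx1 beside Hoxa13 had fewer summits with 4OHT in both settings. Gsx1, a homeobox gene of the ParaHox group (chromosome 5, 147188696 to 147190947), had 0 and 0 summits without against 3 and 4 with 4OHT, one of them at its start with scores of 2.85 and 2.01. All Gsx1 summits with 4OHT scored 7.43 or less.

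Over all protein-coding genes, those with the largest differences included long genes, whose windows hold many summits. Nrxn3, a synaptic adhesion protein (chromosome 12, 88722701 to 90334935), had 24 and 17 summits without against 4 and 6 with 4OHT, and at equal numbers 14 and 11 against 4 and 4. Pknox2, a TALE homeobox factor (chromosome 9, 36890979 to 37147342), had 16 and 12 summits without against 2 and 2 with 4OHT, and at equal numbers 8 and 8 against 2 and 1. Dlc1 (chromosome 8, 36567739 to 36953184) had 16 and 13 summits without against 2 and 5 with 4OHT, and Ptprn2 (chromosome 12, 116485695 to 117278167) had 15 and 18 summits without against 3 and 5 with 4OHT. Gse1 (chromosome 8, 120228501 to 120581383) had the most summits of these with 33 and 27 summits without against 9 and 11 with 4OHT, but at equal numbers its groups overlap with 11 and 15 against 9 and 11. Of the 10 genes that led the list of fewer summits, 4 lie on chromosome 8 and 3 on chromosome 12 with all summits, and 1 and 4 at equal numbers. In the direction of more, Sema3e, a guidance ligand (chromosome 5, 14025276 to 14256689), had 4 and 2 summits without against 5 and 6 with 4OHT. Bptf, a subunit of the NURF remodeller, had 5 and 6 summits without against 8 and 7 with 4OHT. At equal numbers Ptprd, a neural receptor phosphatase (chromosome 4, 75941237 to 78211742), had 2 and 2 against 7 and 10 and Nell1 had 0 and 0 against 6 and 5. With all summits Ptprd had 10 and 3 summits without against 7 and 10 with 4OHT and Nell1 had 5 and 4 summits without against 6 and 5 with 4OHT, and the groups of both overlap.

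Chromosomes took unequal shares of the difference. The X chromosome held 3.06% and 2.82% of summits without 4OHT at equal numbers, against 3.69% and 3.93% with it, and with all summits 3.10% and 3.07% against 3.69% and 3.74%. At equal numbers 28.7% of the lost and gained regions on X were lost (95% interval 22.1 to 35.9), against 52.2% over all chromosomes (50.7 to 53.7). With all summits it was 70.8% on X (63.1 to 77.7) against 83.4% (82.4 to 84.3). Chromosome 12 held 5.15% and 5.22% against 4.74% and 4.73% at equal numbers, and 65.1% of its lost and gained regions were lost. Chromosome 8 had 6.83% and 6.70% against 6.50% and 6.32%, with 63.4% lost. Chromosome 15 went the other way, with 3.58% and 3.64% against 3.96% and 3.95% and 38.3% lost. On most chromosomes the shares of the groups did not overlap at equal numbers, so separate groups were not particular to those named here. The scores of kept regions also differed by chromosome. Relative to each sample's median over all kept regions, the median on chromosome 8 was 1.3 and 1.31 without 4OHT and 1.29 and 1.31 with it, on chromosome 12 it was 1.22 and 1.22 against 1.16 and 1.12, and on X 0.747 and 0.712 against 0.717 and 0.696. Chromosome 8 thus stood high and X low in all 4 samples. In these relative scores, too, the groups did not overlap on most chromosomes. The groups separated most on chromosome 11, with 0.932 and 0.921 against 1.09 and 1.06, on chromosome 19, with 0.969 and 0.959 against 1.12 and 1.06, and, in the other direction, on chromosome 13, with 0.958 and 0.994 against 0.891 and 0.855. The part of these chromosome-wide values in the gene counts above was not tested.

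**Figure D5:**
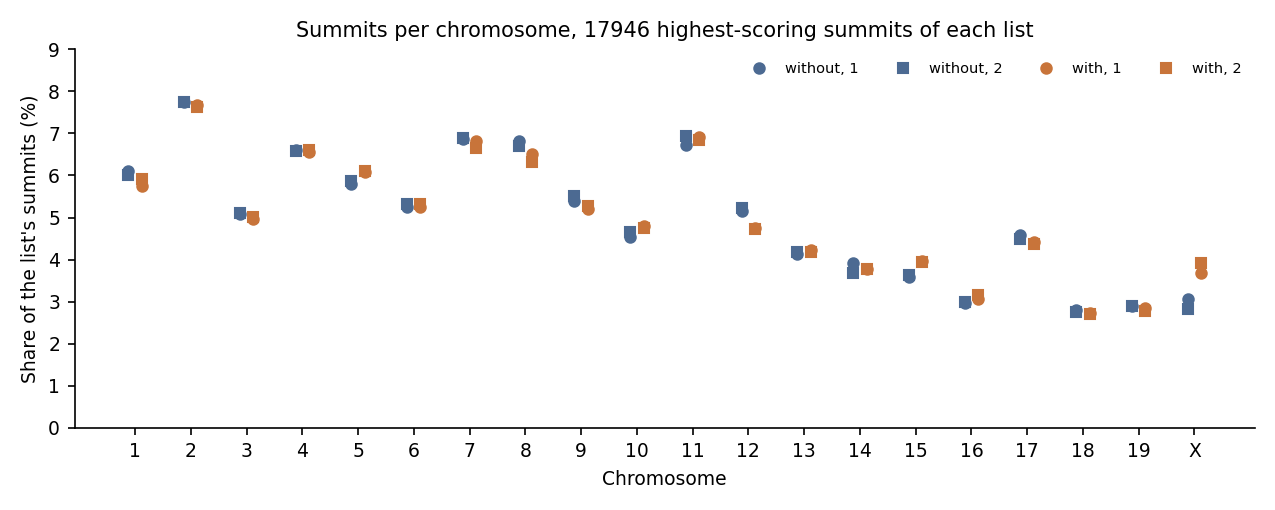
The share of each list's summits (%, y axis) on each chromosome (x axis) is plotted for the 4 samples at equal numbers (blue without 4OHT, orange with it; circles replicate 1, squares replicate 2). On X both orange points lie above both blue ones, and on chromosomes 8 and 12 both lie below.

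Gene starts were compared for the 17274 genes with a start in the table used, which holds none on chromosome 18. A start was called in a sample when a summit lay within 1 kb. Of 10938 genes with a called start, 455 were called in both samples without 4OHT and neither with it (4.16%), and 35 in the reverse case (0.320%). At equal numbers the counts were 235 of 10366 (2.27%) and 184 (1.78%). Most starts were thus called in both groups: 10618 and 10109 genes had one without 4OHT and 9359 and 9723 with it.

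Lost starts differed in base composition from kept ones. In the 300 bases from 250 before to 50 after the start, the 463 lost starts had a median GC content of 57.7% and 11 CpG, against 63.7% and 24 for 7724 kept starts, and 53% and 7 for all 32619 starts. At equal numbers 258 lost starts had 57.0% and 10, and 169 gained starts had 65.3% and 23, close to kept starts. For this count the summits of the group that called a start lay within 250 bp of it and the other group had none within 1 kb. Of lost starts 16.6% held CCGGAA on either strand (95% interval 13.4 to 20.3), against 33.6% of kept and 15% of all starts. AGGAAG, the other ETS core, was in 40.6% of lost (36.1 to 45.2), 30.0% of kept and 35.2% of all starts. The E-box CAGCTG was in 21.6% of lost (17.9 to 25.6), 13.6% of kept and 16.4% of all starts. The NRF1 motif CGCATGCG was in 0.216% of lost, 5.66% of kept and 1.87% of all starts, and the YY1 motif AAGATGGCG in 0.864%, 3.77% and 1.40%. CCAAT was in 34.1% of lost, 41.9% of kept and 37.6% of all starts. The TEAD motif GGAATG was in 11.2% of lost, 10.1% of kept and 14.6% of all starts. The CTCF motif CAGGGGGC was in 2.59%, 5.24% and 2.89%. The octamer ATTTGCAT was in 2.81%, 1.42% and 1.75%. The longer ETS motif ACCGGAAG contains the first core and was in 2.16%, 5.68% and 2.31%. The GATA motif AGATAA was in 7.78% of lost and 4.18% of kept starts and the AP-1 motif TGACTCA in 7.13% and 2.58%, against 16.3% and 7.05% of starts with no summit within 1 kb. With equal numbers of summits, the lost and kept shares were 12.8% and 34.0% for CCGGAA. They were 45% and 30.3% for AGGAAG. They were 23.6% and 13.6% for the E-box and 8.53% and 4.11% for the GATA motif. For the AP-1 motif the lost share was 4.26% (2.15 to 7.50) against 2.61%, and for the longer ETS motif 1.16% against 5.80%. For CCAAT they were 40.7% (34.6 to 47.0) and 42.5%, so that difference was not seen. Gained starts at equal numbers held CCGGAA in 21.9% (15.9 to 28.9) and CCAAT in 27.2% (20.7 to 34.6), also below kept starts. The YY1 motif was in 0.592% of gained and 3.88% of kept starts. At equal numbers gained starts were not below kept ones for the E-box, GATA, AP-1, CTCF and TEAD motifs. With all summits only 35 starts were gained, of which 31.4% (16.9 to 49.3) held CCGGAA and 45.7% (28.8 to 63.4) CCAAT. Kept starts then had 33.6% and 41.9%, inside these wide intervals, so gained starts were not clearly below them. A match is a string of letters and does not show that a factor binds.

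The highest-scoring regions of all were kept. The top one (chromosome 2, position 98666981) had scores of 9982 and 8537 without 4OHT and 13112 and 13197 with it, and lies over 1 Mb from the nearest gene, Lrrc4c. No filter for such sites is recorded in the labels. Among regions called in only 1 group, the lost one with the highest mean rank of score (chromosome 17, position 13551050) had scores of 83.8 and 58.5 and lies 1600 bp from a summit of the other group, and the gained one with the highest mean rank (chromosome 13, position 120321559), 3298 bp from Tcstv3, a gene of the early embryo's Tcstv family, had 208 and 229. Ccdc8, of the cullin-linked 3M complex, had a lost region 41 bp from the gene with scores of 35.0 and 37.4. Dop1b held a gained region with scores of 159 and 153. These regions on chromosomes 17 and 13 and at Dop1b were in 0 of the 6 other EB and fibroblast lists that were looked up.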

How the data were processed

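ATAC-seq summit lists of 2 floxed Brg1 EB samples without 4OHT and 2 with it were analysed, 1 list per sample. Per the submitters' processing notes, Bowtie2 2.2.4, MACS2, HOMER and the build mm10 were used. The deposited scores are −log10 q values, 1 per summit, and every score lies above that of a q value of 0.05. Trimming, duplicates, the Tn5 shift and a blacklist are not given in the sources used here, and each could move summits or scores.

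Only summits on chromosomes 1 to 19 and X were used. They were joined into regions when the next lay within 250 bp. Regions and genes (21631 protein-coding genes, RefSeq, GRCm38.p6, summits within 50 kb of the gene) were counted per sample, with all summits and with the 17946 highest-scoring ones of each list. Read depth per sample is not known. Single values were compared by an exact two-sided permutation test over samples, whose 6 assignments allow no p below 0.333, so counts are given beside the share over all features. Intervals are exact Clopper-Pearson at 95%. The members and gene lists were chosen with earlier results of these data known. Genes were named by a rule: a set of index genes, up to 5 with fewer and 3 with more summits per list, up to 10 of each direction over all genes, and genes nearest the highest-scoring regions. Other list members named were picked after their values were seen. Lists with 5000 or 10000 summits and matching within 1000 bp were alternatives chosen after seeing the data. Scripts (Python 3.11.15, numpy 2.4.6, pandas 2.3.3, scipy 1.17.1, matplotlib 3.10.9) were tested on simulated data. Signal tracks were not used here, and 1 gene that the rule names is not reported here.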

Additional observations from a re-analysis of the deposited data

How the results depend on the processing

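Against 4754 lost and 949 gained regions with all summits, equal numbers gave 2256 and 2068, the 10000 highest-scoring summits 1075 and 1137, and the 5000 highest-scoring 622 and 633. Matching within 100 bp gave 1531 gained regions. Against 5752 genes with fewer and 285 with more summits, equal numbers gave 2169 and 1795, a window of 10 kb gave 2919 with fewer, and a score of at least 5 gave 445 with more. Within 5 kb of a gene end the shares of lost, gained and kept regions were 28.9%, 29.2% and 77.2%. At equal numbers the kept share was 73.0% and the lost share 18.8%. Leaving out 1 sample at a time gave 5541 to 14243 lost and 1536 to 3362 gained regions, and 6596 to 10961 genes with fewer and 436 to 1391 with more, since fewer samples have to agree. For Hoxb1 the mean with 4OHT minus without was 2.5 at equal numbers and 0.5 with scores of at least 5, and for Arid1b it was 1.0 at equal numbers, all opposite in sign to the value with all summits. Of the 210 values of named genes under other settings 143 had the same call (fewer, more or neither) as with all summits within 50 kb. Of 128 list counts 33 stayed within 1.5 times. Taking replicate numbers as pairs (replicate block) gives the same 4754 lost and 949 gained regions by definition, so it is no check of them. For genes the block gave 6370 with fewer and 350 with more. The labels do not say whether the replicate numbers pair the samples. The replicate differences of the 2 groups correlated at -0.092 across 19472 genes and at 0.0064 at equal numbers. A correlation over genes cannot decide how the samples were handled. Depth limits any statement on weak summits, since losses and gains lay mostly among them.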
